A study of Bos taurus with 90 samples.

Results

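The genes described here encode collagens, laminins and integrins, the main fibrous and sheet-forming proteins of the extracellular matrix and the cell surface receptors that bind it. They were taken as every symbol starting with COL or LAM in the study's table of ligands and every symbol starting with ITG in its table of receptors, 49 in all, made up of 23 collagens, 10 laminins and 16 integrins. Since the deposited counts list 27270 genes by Ensembl identifier alone, each symbol was paired with the counts row whose profile over the 27 MGC libraries followed the symbol's profile most closely, and a pair was kept where Pearson's r reached 0.99. By this rule 23 of the 49 genes could be followed into the oocyte: 15 collagens, 2 laminins, LAMB1 among them, and the integrin chains ITGA2, ITGA4, ITGA5, ITGAM, ITGAV and ITGB3. The other 26 lay between r of 0.968 and 0.9897, and they are described in somatic cells only.

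The study collected mural granulosa cells (MGCs), a pool of cumulus cells (CCs) and the oocyte from single bovine antral follicles of slaughterhouse Bos taurus cows. MGCs line the inner wall of the follicle and were peeled off as a layer, whereas the CCs were the tightly attached cells around the oocyte. After removal of 3 follicles in the study, 27 follicles remained, of which 9 were small (3.1 to 3.8 mm), 8 medium (6.2 to 7.0 mm) and 10 large (9.6 to 11.6 mm). No group received a treatment, and the ages of the cows are not given in the sources used here. Follicles of the same stage or of several stages could share a cow, while the tests treat each follicle of a stage as a replicate. MGCs were sequenced as bulk RNA, while CC pools and oocytes were amplified with SMART-seq2 without molecular identifiers, so that cell type and library method cannot be told apart in any comparison of MGCs with the other cells. Levels are given as CPM, the counts of a gene scaled to a fixed library total, which is not corrected for gene length, and they are compared only between samples of the same gene.

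Collagens are trimers that fall into classes by the structure they build. Types I, II, III and V form fibrils of interstitial tissue, and type IV builds the network of the basement membrane, to which laminins, trimers of an alpha, a beta and a gamma chain, bind on the cell side. In the antral follicle a basement membrane separates the avascular granulosa layer from the theca, a vascular stromal layer outside it. Integrins are pairs of an alpha and a beta chain: alpha 2 beta 1 binds collagen, alpha 6 beta 1 binds laminin, and chains such as alpha V, alpha 4 and alpha 5 bind fibronectin, vitronectin and related ligands.

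Total counts ranged from 26739954 to 39266980 in MGC libraries, from 8760201 to 40180192 in the 26 CC pools used and from 8442938 to 53173320 in oocytes. The CC pool of small follicle S7 had counts for 1066 genes only and was left out. The labelled cell types carried their markers. The summed CPM of 6 granulosa markers was 425 to 54430 in MGCs, 2655 to 20200 in CCs and at most 82.7 in oocytes, and that of 3 oocyte markers was at least 7294 in oocytes and at most 84.6 in the other cells. The median granulosa sum was lower in MGCs, 2295 against 11280 in CCs. By the test described below, 4 of the 6 markers were lower in MGCs than in CCs, where 22.7% of all genes were, and 0 were higher. The MGC libraries also held RNA of genes that mark other ovarian cells. The summed CPM of 4 theca and stroma markers (INSL3, DCN, PDGFRA and LHCGR, the last also a granulosa gene late in growth) was 77.2 to 4008 in MGCs, 38.0 to 914 in CCs and 0 to 6.04 in oocytes. In the 10 follicles that the study kept as healthy, the CC medians of INSL3 by stage were 422 to 476 CPM. Those of PDGFRA were 9.82 to 12.5 and those of DCN 1.04 to 1.91. The CC sum there was thus mostly INSL3, whose RNA was not limited to MGCs. Of 4 endothelial markers the sum was 1.99 to 661 in MGCs and 0 to 5.95 in CCs, and of 5 leukocyte markers 0.133 to 142 and 0 to 69.9. In oocytes the endothelial sum was 10.2 to 97.7, with a median of 35.6, and the leukocyte sum 0 to 3.94. Single oocytes thus held more of the endothelial markers than any CC pool, so this list does not mark endothelium alone. Median sums in MGCs and CCs were 1473 and 361 for theca and stroma, 177 and 0.579 for endothelium and 8.56 and 0.115 for leukocytes. Fewer cells of a type and less RNA per cell cannot be told apart in such samples. The MGC libraries of follicles S2 and L6 stood apart, with endothelial sums of 13.8 and 1.99 against 50.8 to 661 in the other 25, and each result on MGCs below was also computed without them.

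A gene was called different where the fold change exceeded 2 and edgeR's quasi-likelihood test gave an adjusted p under 0.05, by the method of Benjamini and Hochberg over all genes tested. Of the 23 genes, 19 passed the limit on low values, a CPM above 1 in at least 15 libraries of one cell type. COL8A2, COL9A1, COL9A3 and ITGAM did not pass, with highest values over all cell types of 7.76, 0.736, 1.47 and 3.23 CPM. For 5 genes, COL3A1, COL5A2, COL4A5 and ITGA5 in MGCs and COL2A1 in oocytes, only one cell type exceeded the limit in enough libraries, so a difference between cell types was built into their selection.

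**Figure D1:**
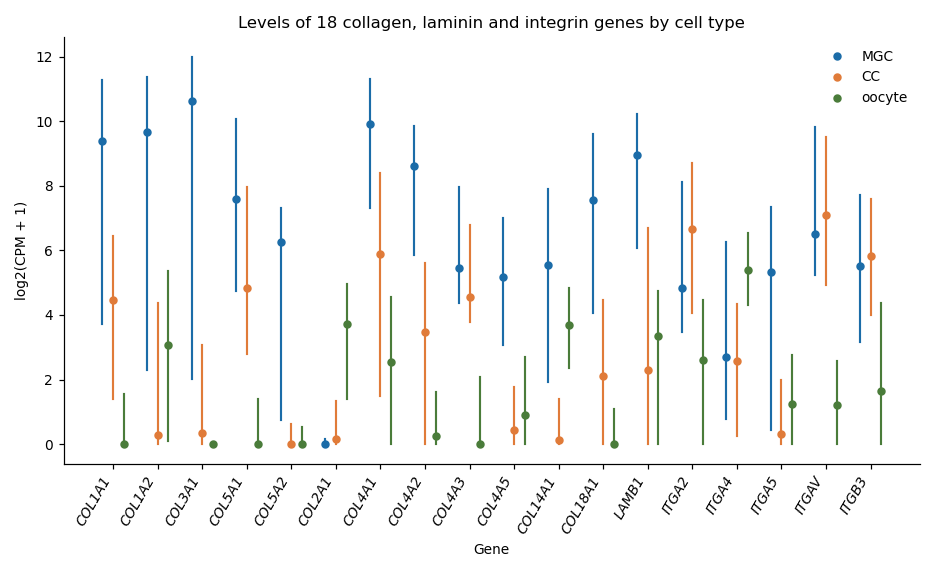
The plot gives log2(CPM + 1) of 18 of the 19 genes tested, with the median as a point and the lowest to highest library as a line, for 27 MGC libraries, 26 CC pools and 27 oocytes. COL1A1, COL1A2 and COL3A1 had median CPM of 668, 815 and 1580 in MGCs, whereas COL2A1 had its highest median, 12.3, in oocytes.

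The comparison of the somatic compartments asked where in the follicle the matrix genes are transcribed. Collagen genes were mostly higher in MGCs than in CCs, with the fibrillar chains COL3A1, COL1A2 and COL5A2 differing most. Of the 19 genes tested, 12 were higher in MGCs and 3 were higher in CCs, COL2A1 and ITGA2 among them, where 27.5% and 22.7% of all genes tested were called in these directions. The 12 include COL3A1, COL5A2, COL4A5 and ITGA5, which passed the limit on low values through MGCs alone, so their direction was built in. The median log2 difference over the 19 genes was 4.74, and over all genes tested 0.04. Without the MGCs of S2 and L6 the counts were again 12 and 3, against 27.3% and 23.2% of all genes. In the 26 genes below the matching limit, 25 were tested, 19 were higher in MGCs and only ITGB8, a beta chain that pairs with alpha V, was higher in CCs. Which cell type carried these genes over the limit on low values was not listed, so for some the direction may be built in.

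COL3A1 (ENSBTAG00000021466) encodes the type III chain of pliable interstitial fibrils. Its CPM in MGCs had a lowest value of 3.03, a median of 1580 and a highest of 4102, and in CCs 0, 0.266 and 7.46. The MGC value was higher in 26 of 26 follicles with both libraries, although the ranges overlapped through the MGCs of L6. The log2 difference was 10.22 ± 0.74 (edgeR, SE). No p is given for it, since COL3A1 passed the limit on low values through MGCs alone. COL1A2, the second chain of the type I trimer, ran from 3.91 through 815 to 2632 in MGCs and from 0 through 0.212 to 19.6 in CCs, a log2 difference of 8.74 ± 0.82 (edgeR, adjusted p = 1.09e-13) in the same direction in all 26 follicles. Its partner COL1A1 differed less, by 4.74 ± 0.38 on the log2 scale (edgeR, adjusted p = 4.45e-16), and CC pools held a median of 21.1 CPM and none was at 0. COL1A1 was lower in MGCs than in CCs in 1 follicle, L6, with 12.3 CPM.

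The type V chains, which sit inside type I fibrils and limit their width, split in the same way. COL5A2 had 0.664 to 159 CPM in MGCs and at most 0.539 in CCs, with 17 of 26 CC pools at 0. The log2 difference was 10.24 ± 0.57, in a gene that also passed the limit on low values through MGCs alone. COL5A1 had a median of 191 in MGCs and 27.7 in CCs, so that its log2 difference was only 2.06 ± 0.30 (edgeR, adjusted p = 3.08e-08) and 2 of 26 follicles went the other way. In the 10 follicles that the study kept as healthy on MGC expression it was 0.88 and missed the fold limit. COL14A1, a fibril-associated collagen, had at least 2.76 CPM in every MGC library and at most 1.62 in any CC pool, a log2 difference of 7.43 ± 0.51 (edgeR, adjusted p = 2.27e-18). COL5A2, COL14A1, COL4A2 and COL4A5 were the 4 of 19 genes whose MGC and CC libraries did not overlap, a state that 2.37% of all genes reached with MGCs the higher. Of these, COL5A2 and COL4A5 had passed the limit on low values through MGCs alone.

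**Figure D2:**
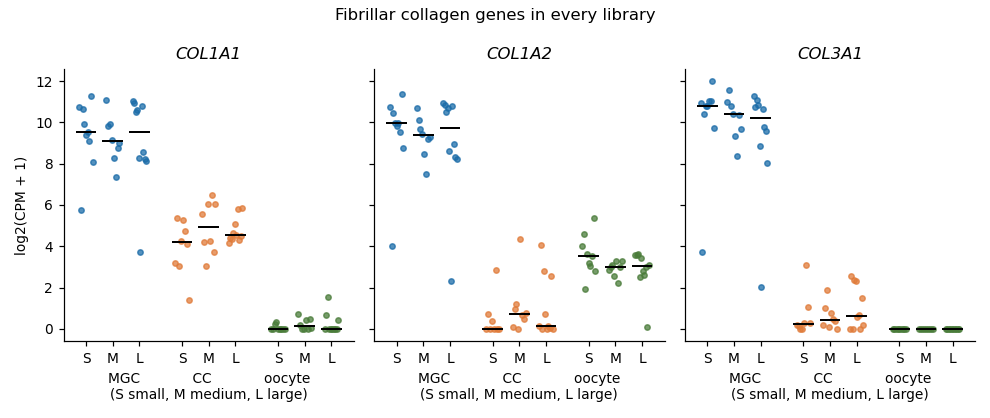
Each point is one library, the vertical axis is log2(CPM + 1), and black bars are medians by stage within MGCs (blue), CCs (orange) and oocytes (green). The 2 low MGC points in each panel are S2 and L6, with COL3A1 at 12.1 and 3.03 CPM, and COL1A2 but not COL3A1 was present in oocytes.

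Among the chains of the basement membrane, 3 of 4 type IV genes were higher in MGCs. COL4A1 and COL4A2, which are next to each other in the RefSeq gene order and form the common type IV trimer, were both higher in MGCs. COL4A1 ran from 157 through 956 to 2545 CPM in MGCs and from 1.81 through 58.2 to 333 in CCs, a log2 difference of 3.77. COL4A2 ran from 57.2 through 393 to 928 and from 0 through 10.2 to 47.5, a difference of 4.92. COL4A5, which passed the limit on low values through MGCs alone, was also higher in MGCs, by 5.90, with medians of 35.4 and 0.349. COL4A3, a chain of the alpha 3 alpha 4 alpha 5 trimer, was present in both compartments, at medians of 42.6 and 22.7, and its log2 difference of 0.55 missed the fold limit (edgeR, adjusted p = 0.016). Its partner COL4A4, one of the genes below the matching limit, had medians of 52.5 and 23.1 and a difference of 0.39 (edgeR, adjusted p = 0.15). COL18A1, whose product sits in vascular and epithelial basement membranes, was higher in MGCs by 5.12.

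LAMB1, the beta 1 chain of the widespread laminins, was higher in MGCs by 4.96, with a median of 500 CPM against 3.91. The 26 CC pools spread from 0 to 102. Among the laminin chains below the matching limit, LAMA1 (387 and 188) and LAMC1 (170 and 57.6) had high medians on both sides and log2 differences of 1.11 and 1.24. LAMA4, a chain of vascular laminins, had medians of 22.8 and 0, LAMC3 20.7 and 0, and LAMA2 2.81 and 0.0140. These 3 were higher in MGCs by 5.29 to 9.10 on the log2 scale. With such medians, CCs could not carry them over the limit on low values. Of the somatic cells only MGCs could, so the direction of these differences may be built in.

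Of the 5 integrin chains tested, one was higher in MGCs, one was higher in CCs and 3 were not called. ITGA5, the alpha chain of the fibronectin receptor, was higher in MGCs by 6.73 ± 0.50, with medians of 39.6 and 0.231 CPM. It had passed the limit on low values through MGCs alone. ITGA2, the collagen-binding alpha chain, was higher in CCs: MGCs ran from 10.1 through 27.4 to 277 and CCs from 15.6 through 101 to 415, a log2 difference of -1.93 ± 0.25 (edgeR, adjusted p = 1.89e-09) that 23 of 26 follicles shared. ITGAV, ITGB3 and ITGA4 were not called, with log2 differences of -0.61, -0.83 and 0.79. In those below the matching limit, ITGB1, the beta chain shared by most matrix receptors, had medians of 710 and 352, ITGA6 of 336 and 230 and ITGA3 of 22.8 and 26.02, and none of them passed the fold limit.

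**Figure D3:**
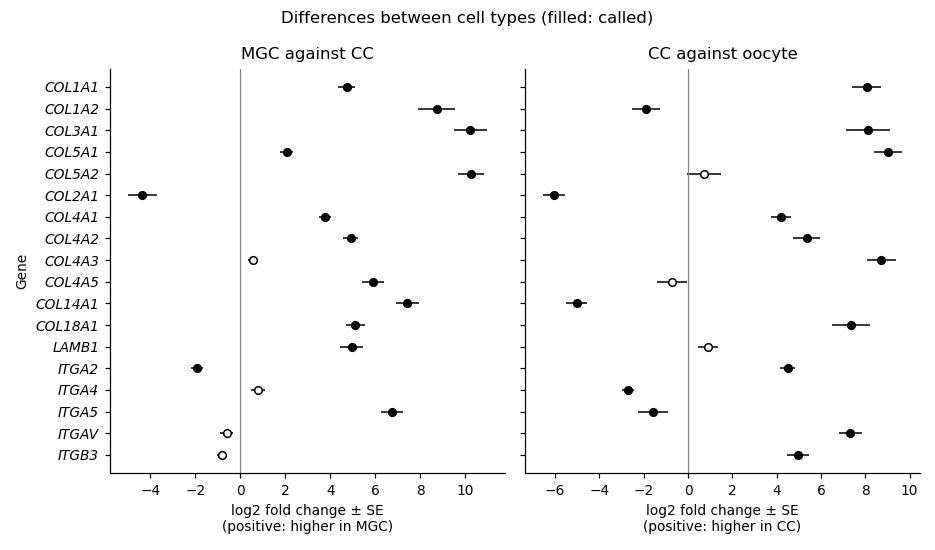
Points are log2 fold changes from edgeR with SE as bars, on the left for MGCs against CCs and on the right for CCs against oocytes, and filled points were called. Of the 18 genes shown, 14 were called on the left and 15 on the right, and COL2A1 lay furthest to the negative side in both, at -4.35 and -6.05.

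In the 2 MGC libraries that stood apart, some of the genes were low and others were not. In both S2 and L6, the values of COL1A1, COL1A2, COL3A1, COL5A2, COL14A1, LAMB1 and ITGA5 lay below the lowest of the other 25 MGC libraries. The share of all genes that did so was not computed, so this cannot be called particular to these genes. COL3A1 was 12.1 and 3.03 CPM there against 263 to 4102, COL5A2 was 0.9902 and 0.664 against 16.2 to 159, and ITGA5 was 0.365 and 2.87 against 14.2 to 163. By contrast, COL4A3 (50.6 and 66.2, others 19.6 to 249), COL4A5 (44.7 and 23.04, others 7.33 to 129) and ITGAV (58.5 and 204, others 36.4 to 896) lay inside the range of the others in both libraries. COL4A1 was below the others in S2 (157 against 342 to 2545) and inside their range in L6 (691). Among the genes below the matching limit, LAMA1 (445 and 1101, others 228 to 818) and ITGB1 (606 and 934, others 398 to 1260) were not low, and COL6A3, LAMA4, LAMC3, ITGA8 and ITGA9 were below all others in both. In the same 2 libraries DCN, a proteoglycan of fibrils, was 13.03 and 4.81 CPM against 78.2 to 1549, INSL3 46.0 and 140 against 173 to 2959, PDGFRA 17.6 and 3.96 against 8.46 to 207, LHCGR 0.599 and 308 against 5.55 to 68.8 and the leukocyte sum 0.625 and 0.133 against 1.297 to 142, while the granulosa sum was 976 and 54430 against 425 to 50470. Of the 4 theca and stroma markers, DCN and INSL3 were thus below all others in both libraries, PDGFRA in S2 was inside their range and LHCGR in L6 was above them. The part of other cells in the levels of the collagen genes was not tested.

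Over the 27 MGC libraries the fibrillar collagens varied together with DCN. On log2(CPM + 1), COL3A1 and DCN correlated with Pearson's r of 0.978 and Spearman's rho of 0.902, COL1A2 and DCN with 0.941 and 0.771, and COL1A1 and DCN with 0.889 and 0.769 (permutation tests, raw p of 2e-05 for each, the smallest that 100000 resamples can give, and adjusted p of 4.5e-05 for r and 6.2e-05 for rho over 25 pairs). Without S2 and L6, the 2 libraries farthest from the median of DCN, r was 0.933, 0.772 and 0.712. Within small, medium and large follicles COL3A1 and DCN had r of 0.989, 0.963 and 0.991 (n = 9, 8 and 10, permutation p of 0.00059, 0.00064 and 4e-05, the first 2 exact, with adjusted p of 0.0049, 0.0027 and 0.0005). With PDGFRA, a receptor of stromal cells, COL3A1 had r of 0.797 and rho of 0.767 (permutation, p = 2e-05, adjusted 4.5e-05 and 6.2e-05), and r was 0.687 without the 2 farthest libraries, L10 and L6. With INSL3, a theca hormone whose RNA was also present in CC pools, COL3A1 had r of 0.605 and rho of 0.115 (permutation, p = 0.0069 and 0.57, adjusted 0.01 and 0.67), and r was 0.03 without S2 and L6, so that relation rested on those libraries. With LHCGR, r was -0.09 and rho 0.131 (permutation, p = 0.59 and 0.51, adjusted 0.59 and 0.64), and the stages went in opposite directions: r was 0.877 in small follicles (exact permutation, p = 0.1, adjusted 0.12), 0.508 in medium (p = 0.17, adjusted 0.23) and -0.84 in large ones (permutation, p = 0.028, adjusted 0.037), the stage of L6.

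Of the 12 pairs of COL1A1, COL1A2 and COL3A1 with these markers, 8 had an adjusted p of r under 0.05, and 6 did so without the 2 farthest libraries. With DCN the basement membrane chains COL4A1 and COL4A2 had r of 0.671 and 0.454 (rho 0.615 and 0.378, permutation p of r 0.0014 and 0.044, of rho 0.00092 and 0.053, adjusted p of r 0.0023 and 0.055, of rho 0.0016 and 0.078), pairs that were added after the values were seen. Without S2 and L6 these were 0.636 and 0.472, and within medium follicles r was 0.919 and 0.913 for these chains against 0.888 and 0.900 for COL1A1 and COL1A2. With PDGFRA and without L10 and L6, COL4A1 and COL4A2 had r of 0.741 and 0.721. Whether the fibrillar and basement membrane chains differed in r was not tested. As a description, COL1A1 and COL1A2, the partners of type I collagen, had r of 0.974, COL4A1 and COL4A2 0.955, and ITGAV and ITGB3, the partners of the vitronectin receptor, 0.351 over the 27 MGC libraries.

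**Figure D4:**
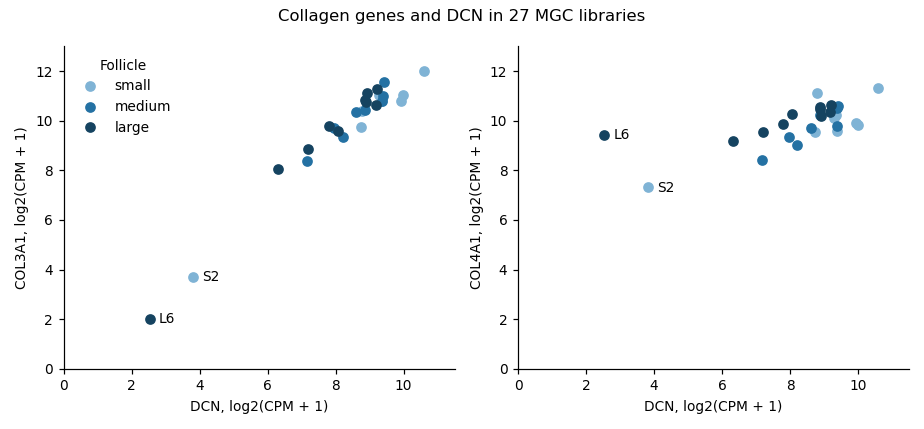
Each point is one of 27 MGC libraries, with DCN on the horizontal and COL3A1 (left) or COL4A1 (right) on the vertical axis, all as log2(CPM + 1). COL3A1 follows DCN down to S2 and L6 with r of 0.978. COL4A1 has r of 0.671 with DCN and is lowest in S2, at 157 CPM, where DCN is 13.03. In L6, where DCN is 4.81, COL4A1 is 691 CPM, inside the range of the others.

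Most of the genes followed into oocytes were at lower levels there than in MGCs, and a few were higher there. Of the 19 genes, 17 were higher in MGCs than in oocytes and 2, COL2A1 and ITGA4, were higher in oocytes, where 41.2% and 33.4% of all genes tested were called. These counts include the genes that passed the limit on low values through MGCs alone, and COL2A1, which passed through oocytes alone. Against CCs, 11 genes were lower in oocytes and 5 were higher there (COL2A1, COL14A1, ITGA4, COL1A2 and ITGA5), where 36.3% and 34.6% of all genes tested were called. In neither comparison did the genes higher in oocytes exceed the share of all genes. The 5 became 3 over all 30 follicles and in the 10 follicles that the study kept as healthy, where COL1A2 and ITGA5 were not called, and 4 with the follicle as a replicate block, where ITGA5 was not.

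COL2A1 (ENSBTAG00000013155), the chain of cartilage type II collagen, had a CPM of 1.65 to 30.1 with a median of 12.3 in oocytes, and each oocyte exceeded every CC pool (0 to 1.53) and every MGC library (0 to 0.122, with 24 of 27 at 0), as 14.2% and 15.8% of all genes did. The log2 difference from CCs was -6.05 ± 0.50 (CCs minus oocytes, edgeR) and from MGCs -10.45 ± 0.49. No p is given for these, since COL2A1 passed the limit on low values through oocytes alone. In CCs, where COL2A1 was called higher than in MGCs, its median was only 0.114. ITGA4, which pairs with beta 1 or beta 7 and binds fibronectin and VCAM1, ran from 18.98 through 40.8 to 92.3 in oocytes, from 0.704 through 5.46 to 76.5 in MGCs and from 0.203 through 4.92 to 19.1 in CCs. All 26 oocytes exceeded the CC pool of their own follicle, with a log2 difference of -2.71 ± 0.28 (edgeR, adjusted p = 1.12e-12), and 26 of 27 exceeded the MGCs of their follicle, by 1.73 ± 0.25 (log2, edgeR, adjusted p = 6.31e-09). COL14A1 was present in every oocyte, at 4.12 to 27.6 CPM, and the highest CC pool had 1.62, a separation that 14.2% of all genes showed in this direction. Its level in MGCs was higher than in oocytes, by 2.58 on the log2 scale.

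Type I collagen was represented by one chain in oocytes. COL1A2 ran from 0.0774 through 7.48 to 40.1 CPM, while COL1A1 was at 0 in 17 of 27 oocytes and reached 1.91 at most. COL1A2 was higher in oocytes than in CCs by 1.90 ± 0.64 (log2, edgeR, adjusted p = 0.00614), in 22 of 26 follicles (-1.28 for CCs minus oocytes over all 30 follicles and -1.02 in the 10 healthy ones, edgeR, adjusted p = 0.0642 and 0.352), and COL1A1 was higher in CCs by 8.07 ± 0.65 (edgeR, adjusted p = 1.25e-16). COL3A1 had no count in any of 27 oocytes, 0 of 828982014 counts. Against a floor of 3 counts over the group, this would place pooled MGCs at least 391162-fold and pooled CCs at least 343-fold higher. These limits assume independent counts and cover counting error only. More than an even share of low counts were even values, so the limits may be too high. The CC limit rests on a pooled level of 1.24 CPM, which is above the CC median given earlier. COL5A1, COL4A3 and COL18A1, all present in CCs, were at 0 in 17, 19 and 24 of 27 oocytes, and they were lower in oocytes by 9.03 ± 0.62, 8.72 ± 0.65 and 7.36 ± 0.85 (log2, edgeR, adjusted p = 2.41e-19, 6.32e-18 and 1.07e-10).

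MGCs exceeded oocytes in COL1A1, COL18A1 and COL5A1 by 12.99 ± 0.71, 12.76 ± 0.68 and 11.29 ± 0.57 on the log2 scale (edgeR, adjusted p = 1.63e-23, 1.71e-21 and 1.01e-24), in all 27 follicles.

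The other tested integrin chains that were followed into oocytes were low there. ITGB1, ITGA6, ITGA3 and the other chains below the matching limit were not followed, and the study lists ITGB1 among high receptors of oocytes. ITGAV had a median of 1.31 CPM in oocytes and 136 in CCs, ITGB3 2.11 and 56.1, ITGA2 5.07 and 101, and each of the 3 was lower in oocytes in 26 of 26 follicles. ITGA5 was called higher in oocytes than in CCs (1.58 on the log2 scale, edgeR, adjusted p = 0.0313), but only 12 of 26 follicles showed this direction and 11 the opposite, and over all 30 follicles CCs were higher by 0.21 (edgeR, adjusted p = 0.795). LAMB1 had a median of 9.11 in oocytes, against 3.91 in CCs, and was not called (edgeR, adjusted p = 0.066).

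Across the growth of the follicle, collagen and laminin transcripts showed few changes that exceeded the spread among follicles, and the calls made over the 27 follicles among the 19 genes were of integrins in MGCs. From small to large follicles, 3 of 19 genes fell in MGCs, ITGB3, ITGA4 and ITGA2, and none rose, where 2.7% of all genes tested were called lower. None of the 19 genes was called from small to medium (0.423% of all genes called) or from medium to large follicles (0% of all genes called by edgeR), while 5 and 1 of the 19 had an unadjusted p under 0.05 with the fold limit and DESeq2 called 2 and 0. The median log2 change of the 19 genes from small to large follicles was -0.58, and that of all genes -0.01. Without S2 and L6 the same 3 genes were called, against 2.31% of all genes.

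ITGB3 (ENSBTAG00000009987), the beta chain of the vitronectin receptor, ran from 55.8 through 73.6 to 210 CPM in MGCs of small follicles, from 22.7 through 38.1 to 46.5 in medium and from 8.05 through 18.5 to 76.7 in large ones. Each of the 9 small follicles lay above each of the 8 medium ones, while large follicles overlapped both. The share of all genes separated in this way was not computed. The change from small to large was -1.77 ± 0.34 (log2, edgeR, adjusted p = 0.00187), and that from small to medium, -1.43 ± 0.36, missed the threshold (edgeR, adjusted p = 0.0615). COL4A3 had the next smallest p from small to medium, with a change of -1.31 ± 0.35 (edgeR, adjusted p = 0.0815).

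ITGA4 ran from 0.704 through 11.2 to 76.5 CPM in small, from 4.02 through 6.51 to 18.6 in medium and from 2.69 through 5.05 to 8.56 in large follicles, and the small follicles spanned the whole range of the others. Its change from small to large was -1.87 ± 0.51 (edgeR, adjusted p = 0.0241). ITGA2 ran from 10.1 through 32.9 to 277 in small and from 11.3 through 24.2 to 34.4 in large follicles, a change of -1.55 ± 0.42 (edgeR, adjusted p = 0.025). Both calls rested on S1, the small follicle with the highest value of each: without it, the changes were -1.38 and -1.08 (edgeR, adjusted p = 0.0787 and 0.0871). In the 10 follicles that the study kept as healthy they were -1.22 and -0.66 (edgeR, adjusted p = 0.0742 and 0.13), and with the first digits of the follicle number as a covariate -0.38 and -0.23 (edgeR, adjusted p = 0.779 and 0.816), neither called. ITGB3 was called under every omission of a single library.

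**Figure D5:**
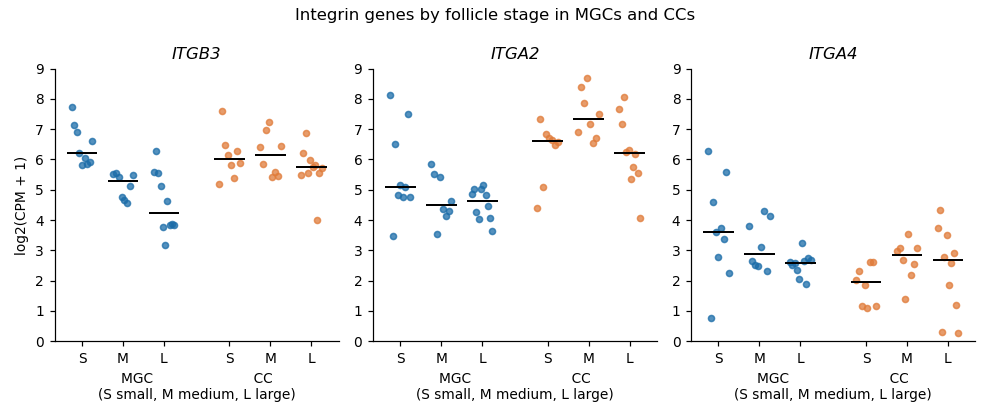
Each point is a library, the vertical axis is log2(CPM + 1), and black bars are medians by stage in MGCs (blue) and CCs (orange). ITGB3 in MGCs has medians of 73.6, 38.1 and 18.5 CPM in small, medium and large follicles, and in CCs of 63.6, 70.8 and 52.5.

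The fibrillar collagens did not pass the test over the 27 follicles. COL3A1 in MGCs ran from 12.1 through 1779 to 4102 CPM in small, from 328 through 1336 to 2994 in medium and from 3.03 through 1224 to 2470 in large follicles, with full overlap. In the 10 follicles that the study kept as healthy on MGC expression (3 small, 3 medium and 4 large), 5 of 18 genes fell from small to large follicles in MGCs, where 4.98% of all genes did: COL3A1, COL1A2, COL1A1, COL5A1 and ITGB3. COL3A1 was 1759, 1779 and 2078 CPM in the small follicles and 263, 469, 770 and 869 in the large ones, with no overlap and a change of -1.76 ± 0.37 (log2, edgeR, adjusted p = 0.014). COL1A1 was 668, 745 and 964 in the small and 279, 301, 312 and 382 in the large follicles, a change of -1.38 ± 0.31 (edgeR, adjusted p = 0.0186). DCN moved with them, at 664, 975 and 1015 CPM in the small and 78.2, 146, 221 and 266 in the large follicles, and its part was not tested. ITGB3 was 55.8, 65.7 and 73.6 in these small, 22.7, 24.1 and 43.7 in the medium and 12.7, 13.2, 13.4 and 13.5 in the large follicles, with no overlap between stages and a change of -2.35 ± 0.24 from small to large (edgeR, adjusted p = 0.000555). For COL3A1 and ITGB3 in this set, the share of all genes with no overlap between stages was not computed. From medium to large follicles in this set 4 of 18 genes were called. ITGA4 and ITGB3 fell, with changes of -1.69 and -1.17, where 4.67% of all genes fell. COL14A1 rose by 1.18 and LAMB1 rose by 2.02 ± 0.58 (edgeR, adjusted p = 0.0473), where 3.34% of all genes rose, although one large follicle, at 115 CPM, lay below 2 of the 3 medium ones.

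In CCs none of the 19 genes was called between stages, with 0% of all genes called in each of the transitions between neighbouring stages and 3.34% from small to large. At an unadjusted p under 0.05 with the fold limit there were 6, 1 and 4 of them, and DESeq2 called 1, 0 and 3. The smallest p from small to large belonged to ITGA5, 3.70 ± 1.10 (log2, edgeR, adjusted p = 0.0536), a gene whose median in CCs was 0.231 CPM, and to COL4A2, 1.81 ± 0.63 (edgeR, adjusted p = 0.0874), which had medians of 3.91, 9.48 and 16.7 in small, medium and large follicles. From small to medium they belonged to ITGA5 and to COL4A1, with a change of 1.43 ± 0.46 (edgeR, adjusted p = 0.303 for both), and from medium to large to ITGA2, with -1.11 ± 0.39, and ITGB3 (edgeR, adjusted p = 0.537 and 0.725). Among the genes below the matching limit, COL6A2, a chain of the beaded microfibrils of type VI collagen, rose from small to large follicles in CCs by 1.09 ± 0.30 (edgeR, adjusted p = 0.041), a call that was lost under 6 alternatives (adjusted p of 0.0573 to 0.758), among them no filter and all 30 follicles. In MGCs ITGB8 fell by 1.71 and LAMB3 fell by 1.32, and without S2 and L6 the change of LAMB3 was -0.81 (edgeR, adjusted p = 0.147).

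In oocytes none of the 18 genes tested was called between stages, with 0.0737%, 0% and 1.51% of all genes called from small to medium, from medium to large and from small to large. At an unadjusted p under 0.05 with the fold limit there were 2, 3 and 4, and DESeq2 called none. COL5A1 came closest from small to large, with an adjusted p of 0.0544 from edgeR, at a level of at most 1.62 CPM, followed by COL4A3 (edgeR, adjusted p = 0.0901). COL1A2 had medians of 10.4, 7.05 and 7.17 CPM and COL4A1 of 2.01, 9.09 and 4.24, the pair with the smallest p from small to medium (edgeR, adjusted p = 0.281 and 0.293). COL18A1 and COL5A1 had the smallest p from medium to large (edgeR, adjusted p = 0.831 and 0.85).

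Whether the change from small to large follicles differed between MGCs and CCs was tested as an interaction. One of 19 genes was called, ITGA4, where 3.99% of all genes were: its change was more negative in MGCs by 2.69 ± 0.79 on the log2 scale (edgeR, adjusted p = 0.0429). Its medians in small, medium and large follicles were 11.2, 6.51 and 5.05 CPM in MGCs and 2.84, 6.17 and 5.41 in CCs. With the follicle as a replicate block it was not called (0 of 19 genes, adjusted p of 0.345 for ITGA4), nor over all 30 follicles or with the CC pool of S7. In the 10 follicles that the study kept as healthy the difference was -1.98 and was not called (edgeR, adjusted p = 0.43). The call of ITGA4 in MGCs rested on S1, and the interaction was not fitted without S1.

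The partner genes of the same matrix were also mostly higher in MGCs than in CCs. Of 3 basement membrane partners matched (NID1, NID2 and HSPG2), 2 were higher in MGCs than in CCs, and of 7 interstitial partners all were, against 27.5% of all genes. NID1 and NID2, the nidogens that tie laminin to type IV collagen, were higher in MGCs by 7.90 and 8.12 on the log2 scale, FN1, fibronectin, by 8.86 and DCN by 6.89. HSPG2, perlecan, was not called (0.74). Between CCs and oocytes the partners split. Of the 7 interstitial partners, 4 were higher in CCs and 3 in oocytes, and of the 3 basement membrane partners 1 and 2. Of all genes, 36.3% and 34.6% were called in these directions. Among those higher in oocytes, NID1, NID2 and FN1 differed by 2.80, 6.68 and 3.00. NID2 had a median of 108 CPM in oocytes and 0.474 in CCs, with no overlap between 26.1 to 151 and 0 to 3.11, as in 14.2% of all genes in this direction. From small to large follicles in MGCs, HSPG2 fell by 1.29 ± 0.31 (edgeR, adjusted p = 0.0109), and none of the other 9 genes in these lists was called, although without S2 and L6 DCN was, with -1.16 (edgeR, adjusted p = 0.0446).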

How the data were processed

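RNA-seq libraries of MGCs, CC pools and single oocytes from 30 follicles, 90 in all, were used as one table of counts per gene deposited by the authors, without normalization. The submitters' processing notes name HISAT2 2.2.1, featureCounts and ARS-UCD1.2, the study's methods name STAR, and which aligner made the counts was not settled. Strand is not given in the sources used here, so reads of a gene and an antisense partner cannot be told apart. Between 54.9% and 77.5% of counts from 1 to 20 were even, by library. Counts of amplified libraries are not molecules, so p-values cover the spread between follicles only. Floors cover counting error only and assume independent counts, which the excess of even values calls into question. All columns were used in at least one fit.

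Symbols were matched to rows by Pearson's r on log2 values with a pseudocount of 1, using the TPM of the study's ligand and receptor tables for the match alone. All 49 rows were distinct, and each was also the closest row over 21 CC columns that the match did not use. The genes, lists and tests were chosen with earlier results of these data known, and no gene list here is independent of them.

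Libraries were grouped by the labels. Genes were tested with edgeR 4.0.16 (TMM, glmQLFit, glmQLFTest) in R 4.3.3 in one fit per cell type over the stages, or per pair of cell types with cell type and stage, over 15131 genes less those without counts in the fit. Genes were named where called with the largest changes, up to 4 a direction, with a median CPM of at least 1 in one group, or else as the 2 smallest p. Alternatives were DESeq2 1.42.0, its size factors, other filters, other sets of follicles, the first 3 digits of the follicle number as a covariate, leaving out each follicle, other limits of r and the follicle as a replicate block. The follicle number in the titles pairs the 3 cell types of a follicle. Deviations from the group means correlated within follicles with a median r of 0.06 for MGCs and CCs, 0.095 for CCs and oocytes and 0.001 for MGCs and oocytes. Stages hold different follicles and have no pairs. Correlations used Python 3.11.15 and scipy 1.17.1 on log2(CPM + 1), with two-sided permutation tests of 100000 resamples, exact under 10 libraries. The fits were tested on simulated counts with known changes. No sequence is shown, and the values of one gene are not reported here.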

Additional observations from a re-analysis of the deposited data

Results flagged for a closer look

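Within stages, 57 groups of 8 to 10 libraries were examined for a library far from the rest, on log2(CPM + 1), and 15 were found, where chance gives about 1 in 20 groups if values are normally spread, which groups mostly at 0 are not. Of these, 5 were the low MGC libraries of S2 and L6: COL1A2 at 15.1 and 3.91 CPM, COL3A1 at 12.1 and 3.03 and COL1A1 at 12.3 in L6. The others were mostly of genes near 0. In MGCs, S3 was highest in COL2A1 at 0.0285 CPM. In CCs, COL4A1 was lowest in S1 at 1.81, ITGA5 highest in S9 at 0.236 and ITGB3 lowest in L8 at 14.9. In oocytes, COL18A1 was highest in S5 at 0.972 and in M7 at 1.11, COL1A2 lowest in L9 at 0.0774, COL4A3 highest in S6 at 3.24 and in L10 at 0.0918 and COL5A1 highest in L10 at 0.138. The change of ITGA4 from small to large follicles differed between MGCs and CCs by -2.69 on the log2 scale, with changes of -1.87 in MGCs and 0.84 in CCs (the latter not called), and it was not called with the follicle as a replicate block (edgeR, adjusted p = 0.345). In the CC pool of S7, which only an alternative used, COL3A1 had 211 CPM and ITGAV 4229, and 4 of the 23 matched genes had a count.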

How the results depend on the processing

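Most counts of genes called moved by at most 1.5 times under the alternatives. For MGCs against CCs the count of 15 became 30 at a minimum r of 0.98, 5 at the stricter of the 2 other limits of r and 35 over all 49 symbols, which changes the genes tested. For CCs against oocytes 16 became 30 and 6 at these limits, and for MGCs against oocytes 19 became 36 and 6. The number of symbols matched was 23, and 42 at r of 0.98, 7 at the stricter limit and 37 with a pseudocount of 0.1. From small to medium follicles in MGCs, 0 became 2 with DESeq2 (ITGB3 and COL4A3), 2 in the 10 healthy follicles and 1 with only the stages compared. From medium to large, 0 became 4 in the healthy follicles. From small to large, 3 became 5 in the healthy follicles, 5 at r of 0.98, 1 at the stricter limit and 5 over all 49 symbols. In CCs, small to medium went from 0 to 1 with DESeq2, and small to large from 0 to 3 with DESeq2, 1 with filterByExpr, 1 at r of 0.98 and 1 over all 49 symbols. The cause of these differences was not tested. Leaving out one follicle gave 1 to 4 calls from small to large in MGCs, 0 to 1 in CCs and in oocytes, and 0 to 1 from small to medium in MGCs. Beside ITGA4 and ITGA2, which were lost without S1, calls were gained for COL18A1 without L1 and COL4A3 without L9, and for ITGB3 from small to medium without S8, L2 or L6. In CCs COL4A2 was gained without S4 and ITGA5 without M1, and in oocytes COL5A1 without S7, S8 or L10. The difference between MGCs and CCs in the change from small to large, 1 gene, became 0 over all 30 follicles, with the CC pool of S7 and with the replicate block, and 2 in the healthy follicles (ITGA5 and ITGB3). The replicate block changed no other count by over 1.5 times (15, 15 and 19 genes for the cell types). ITGA5 in CCs, not called, reversed over all 30 follicles, to -0.88 from small to medium and -0.76 from small to large. Of 12 pairs of collagens and markers, 4 passed within medium follicles. DESeq2's size factors moved the median log2 difference of all genes between MGCs and oocytes from 0.31 to 0.716, and between MGCs and CCs from 0.044 to 0.194.

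In CCs and oocytes COL3A1, COL5A2, COL4A5 and ITGA5 had medians under 1.4 CPM, and their folds between stages rest on few counts.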

Other observations

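Other genes that bind integrins were spread over all 3 cell types. Of 6 such ligands matched (VCAN, EDIL3, THBS1, THBS2, TGM2 and SPP1), 3 were higher in MGCs than in CCs and none was higher in CCs, against 27.5% and 22.7% of all genes, and 5 were higher in CCs than in oocytes, against 36.3%. SPP1, osteopontin, was higher in oocytes than in CCs by 6.68 ± 0.69 (log2, edgeR, adjusted p = 9.26e-13) in 26 of 26 follicles. TGM2, a transglutaminase that links fibronectin to integrins, was higher in CCs than in oocytes by 8.85. CD44, the hyaluronan receptor, was higher in oocytes than in CCs by 8.16 and in MGCs than in CCs by 7.63.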
